A study of Mus musculus with 23 samples.

Results

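Microvillus structure genes with Vil1 were 10 genes that encode parts of the small intestinal brush border: Vil1, Espn, Pls1, Eps8, Myo1a, Ezr, Cdhr2, Cdhr5, Ush1c and Myo7b. They were found by their symbols, through the NCBI Gene numbers of the table, as 10 of its 19215 entries, and all 10 had a mean of at least 1 FPKM (fragments scaled by the length of the transcript and the size of the library) and were tested.

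Each microvillus of an enterocyte, the absorptive cell of the villus, is a finger of membrane around a core of parallel actin filaments. Villin, espin and plastin 1 cross-link the core, EPS8 sits at its tip, and the motor myosin 1a and the linker ezrin tie it to the membrane. The protocadherins CDHR2 and CDHR5 join the tips of neighbouring microvilli, and harmonin (Ush1c) and myosin 7b hold them to the core. Microvilli are built up as enterocytes leave the crypt, and damage of this surface is a feature of mucositis.

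Small intestine RNA of male ICR mice was sequenced in 23 libraries. All of the mice had received busulfan, a chemotherapeutic given in the study's design as 1 dose of 40 mg/kg at 3 weeks of age, so that no group was without busulfan. Sa mice then received saline, and the others fecal microbiota transplantation (FMT). The donors had been given vehicle (Con-FMT), or alginate oligosaccharides (AOS) at a dose of 10 mg/kg in A10-FMT and of 100 mg/kg in A100-FMT. FMT was gavaged daily for 1 week, and the mice were sampled at 5 weeks of age. Neither the age nor the duration is given in the sample records. The luminal contents of the donors of a group were pooled, so each FMT group stood for 1 pool. The codes in the sample names divide the libraries into set 1 and set 2, and what the sets are is not given in the sources used here. Each treatment had 3 libraries in a set, except Sa in set 1 with 2. Each library is called a mouse below and was tested as a separate one. Whether libraries of set 1 and set 2 came from the same mice is not given either. The labels number the samples of a group and do not say whether mice shared a litter or cage, so p-values measure the spread between these samples only.

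The depth of the libraries was unknown, and their FPKM summed to 556466 to 667957. Sa replicate 3 of set 1 stood apart: its deviation from the median library followed the GC content of transcripts with a Spearman's rho of 0.69 across genes, against -0.22 to 0.22 in the other libraries. Its title names the Sa column numbered 3 of that set and its description the column numbered 2, which may hold another mouse. Values are from the title's column, and those of the description's column, with a rho of -0.087, are added where they differ in outcome. Epithelial genes were high. The summed level of 12 enterocyte markers was 4543 to 13886 FPKM in the libraries, and that of 8 pan-epithelial markers was 7180 to 10523 FPKM. Of the 8 fibroblast and endothelial markers, 7 had means under 1 FPKM, as had 5 of the 7 smooth muscle markers, among them Acta2 and Myh11, and Ms4a1 of B cells.

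Promoter sequences are shown for the members with a single annotated start that rose after A10-FMT against Con-FMT in set 1. They are the 250 bases before the RefSeq start on GRCm38.p6, written 5′ to 3′ on the strand of the gene. Capitals mark matches to TTTATN, the letters searched for CDX factors, the regulators of intestinal identity.
Vil1, chr1:74409134-74409383, plus strand: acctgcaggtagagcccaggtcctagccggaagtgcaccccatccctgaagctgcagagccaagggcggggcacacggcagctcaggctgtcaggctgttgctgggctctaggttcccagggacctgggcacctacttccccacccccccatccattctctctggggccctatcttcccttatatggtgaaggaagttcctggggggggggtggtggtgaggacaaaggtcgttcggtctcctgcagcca
Ezr, chr17:6782781-6783030, minus strand: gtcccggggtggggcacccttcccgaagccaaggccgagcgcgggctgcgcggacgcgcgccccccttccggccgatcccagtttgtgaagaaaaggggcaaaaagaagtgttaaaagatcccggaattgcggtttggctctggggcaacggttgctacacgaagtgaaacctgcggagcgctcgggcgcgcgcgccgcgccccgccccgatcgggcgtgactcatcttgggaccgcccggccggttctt
Cdhr2, chr13:54701213-54701462, plus strand: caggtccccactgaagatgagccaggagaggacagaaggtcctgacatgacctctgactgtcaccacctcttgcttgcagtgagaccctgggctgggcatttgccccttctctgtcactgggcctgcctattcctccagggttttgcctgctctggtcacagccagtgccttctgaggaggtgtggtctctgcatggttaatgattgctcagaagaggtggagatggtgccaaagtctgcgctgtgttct
Cdhr5, chr7:141276787-141277036, minus strand: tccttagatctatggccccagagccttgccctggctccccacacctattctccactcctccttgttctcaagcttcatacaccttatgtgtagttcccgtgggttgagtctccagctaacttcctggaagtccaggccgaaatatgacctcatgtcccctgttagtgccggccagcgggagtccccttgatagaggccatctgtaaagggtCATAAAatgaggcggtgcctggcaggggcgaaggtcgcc

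Promoter windows were searched for 8 of the 10 members, 10 windows in all because Espn has several starts. Eps8 had no entry, and Myo7b was left out of the search. On both strands, TTTATN matched in Cdhr5, 34 to 39 bases before the start, and in 1 window of Espn, 191 to 196 bases before it. These letters occur in 37.2% of all 32851 mouse promoter windows of the same length. The HNF4 letters CAAAGTNCA (1.19% of all windows) and TATAAA (12.4%) matched in none of the members' windows searched. A match to TATAAA is also a match to TTTATN on the other strand. On GRCm38.p6, Vil1 spans bases 74409384 to 74435560 of chromosome 1 and overlaps Usp37, whose mean level was 9.92 FPKM. Whether strand was used in counting is not given, and reads of the overlap cannot be assigned to one of these genes. Espn overlaps the pseudogene Gm17852 and Myo7b the noncoding Gm16344, neither of which was analysed here.

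All members were well expressed, and Vil1 was the highest. Averaged over the libraries, Vil1 reached 694 FPKM, above 98.8% of the genes tested. Cdhr5 followed with 431 FPKM, Myo1a with 345, Cdhr2 with 192, Pls1 with 186, Ezr with 139, Ush1c with 104, Myo7b with 75.6, Espn with 66.3 and Eps8 with 31.9. FPKM is per transcript length, so these levels may be set side by side. Espn varied most across libraries, with a coefficient of variation of 28.1% and a highest level 3.19 times the lowest. Ush1c varied least, with 7.05%.

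**Figure D1:**
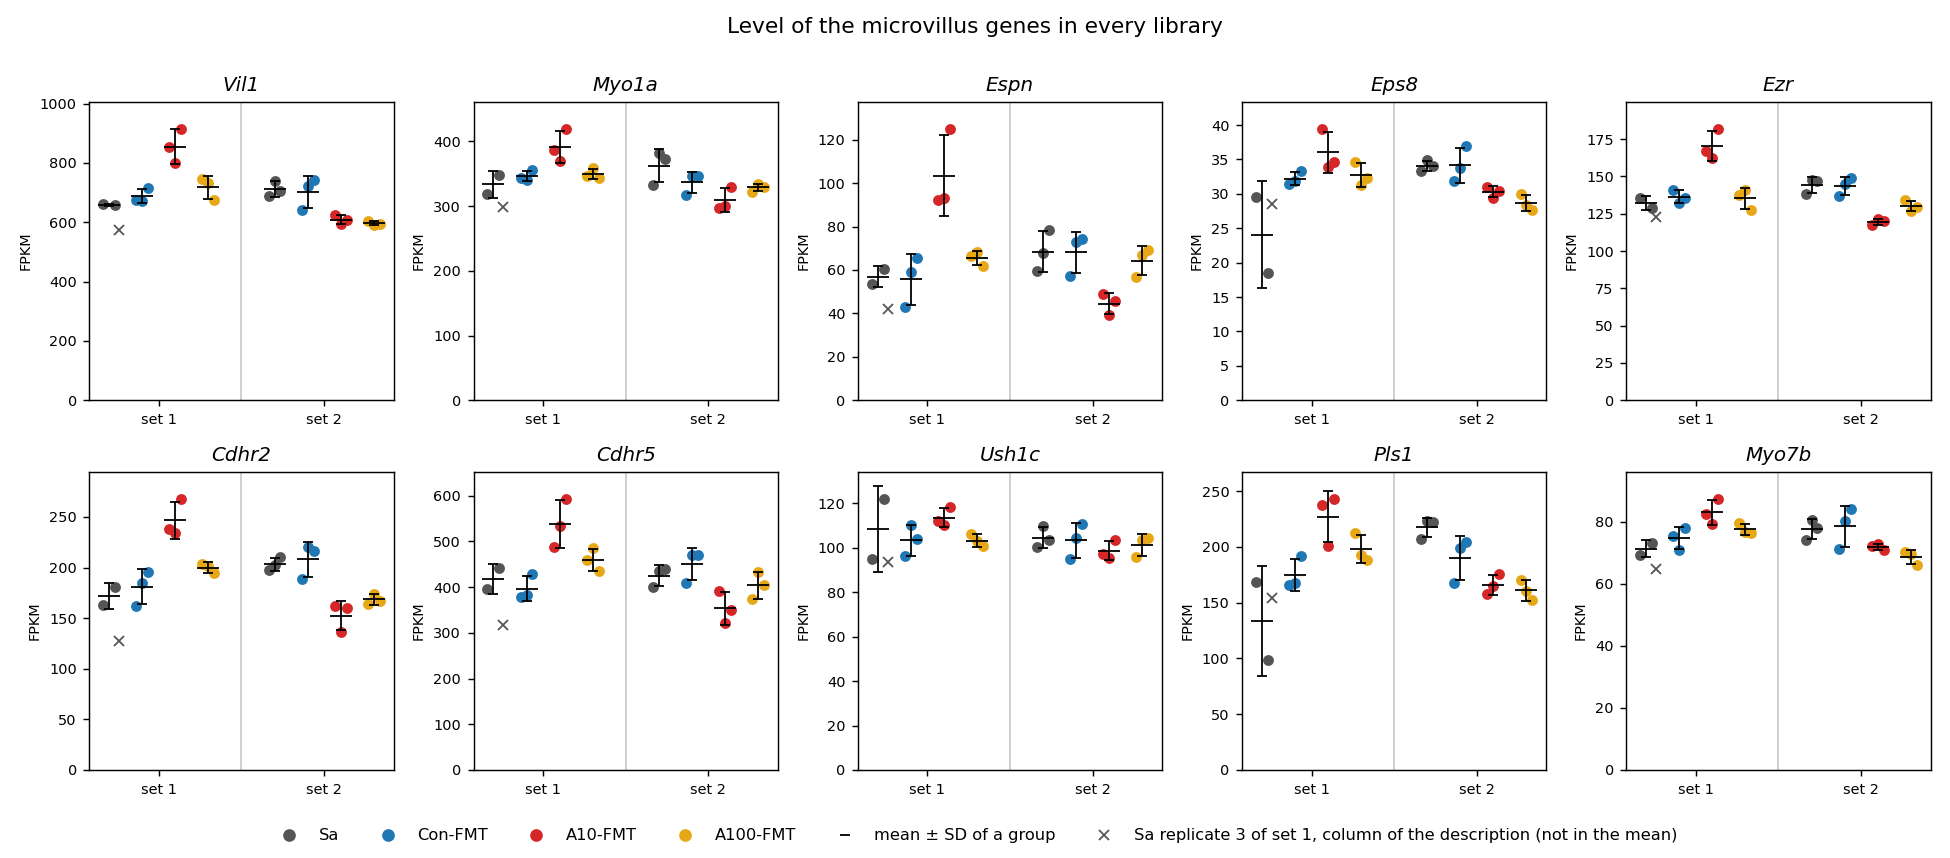
FPKM of each of the 10 microvillus genes (vertical axes, from 0) in every library, by treatment within set 1 and set 2; points are mice, bars the mean ± SD of a group, and crosses the description's column of Sa replicate 3 of set 1. The A10-FMT mean was the highest of set 1 and of all 8 groups for every gene, while in set 2 the A10-FMT and A100-FMT means lay below Sa for every gene.

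A10-FMT mice of set 1 had the highest group mean for all 10 members. Its mean lay apart from the next group by more than the larger of their SDs for Vil1, Myo1a, Espn, Ezr, Cdhr2 and Cdhr5, and not for Eps8, Ush1c, Pls1 and Myo7b. A10-FMT of set 2 had the lowest mean for 6 members (Myo1a, Espn, Ezr, Cdhr2, Cdhr5 and Ush1c). A100-FMT of set 2 was lowest for Vil1 and Myo7b. Sa of set 1 was lowest for Eps8 and Pls1. Most other neighbours in the order of the 8 groups differed by less than the larger SD, and for Ush1c all of them did.

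Vil1, whose product villin bundles and severs actin, measured 660.3 and 657 FPKM in the 2 Sa mice of set 1. In set 1 Con-FMT gave 674, 673 and 715 FPKM, A10-FMT 854, 798 and 914, and A100-FMT 746, 733 and 674. All A10-FMT mice of set 1 lay above every Sa, Con-FMT and A100-FMT mouse. In set 2, Vil1 was 688, 740.0 and 707 FPKM in Sa, and Con-FMT gave 640.3, 721 and 741, A10-FMT 626, 594 and 607, and A100-FMT 606, 592 and 593. There the A10-FMT and A100-FMT mice all lay below every Sa and Con-FMT mouse, the reverse of A10-FMT in set 1. The level after A10-FMT was thus 855 ± 57.8 FPKM in set 1 and 609 ± 16.2 in set 2 (SD, n = 3 each), while Con-FMT, at 687 ± 24.0 and 701 ± 53.5 (SD, n = 3 each), overlapped between the sets.

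To ask what AOS dosing of the donor added to FMT, A10-FMT was compared with Con-FMT in set 1. No Sa mouse enters the change itself, but all 8 groups share the estimate of the spread, and so Sa libraries enter the p-values. The brush border genes were higher after A10-FMT: 5 of 10 members rose, and none fell, at an adjusted p under 0.05 (limma on log2(FPKM + 1), Benjamini-Hochberg over 11337 genes). Among all genes tested, 16.7% were called and 5.2% were called higher. The members' median log2 change was 0.32, all 10 were above 0, and the median of all genes was -0.08. Of the called genes, 590 were higher and 1301 lower, and with median-ratio scaling, which called 8 members, 909 and 589. The count of members was 6 in a fit of the Con-FMT and A10-FMT libraries of set 1 alone, 8 with array quality weights, 9 with the description's column of Sa replicate 3 and 9 with an adjustment for GC content, so that for most genes below that did not pass the call depends on these choices. It was 5 to 6 on leaving out any 1 of the libraries compared. In bulk tissue, more cells of a type and more RNA per cell cannot be told apart.

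Among the actin bundlers, Espn changed most. Espin was at 42.8, 58.9 and 65.7 FPKM after Con-FMT and at 92.4, 93.2 and 125 after A10-FMT in set 1, with no overlap, a log2 change of 0.89 ± 0.15 (SE) and an adjusted p of 0.00142. Vil1 rose by 0.31 ± 0.06 on the log2 scale (adjusted p = 0.00269). Pls1, the third bundler, was at 166, 168 and 192 FPKM against 237, 201 and 243, which did not overlap, but its change of 0.37 ± 0.13 did not pass the test (adjusted p = 0.0674). Eps8, the tip protein, changed by 0.15 ± 0.11 and did not pass (adjusted p = 0.341).

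Of the genes that tie the core to the membrane, Ezr rose and Myo1a did not pass. Ezr was at 141, 132 and 136 FPKM after Con-FMT and at 167, 162 and 182 after A10-FMT. Every A10-FMT mouse was thus higher, and the log2 change was 0.32 ± 0.05 (adjusted p = 0.00124). Myo1a, the membrane motor, had no overlap either and a change of 0.18 ± 0.06 (adjusted p = 0.059).

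Both protocadherins of the tip links rose. Cdhr2 was at 162, 185 and 196 FPKM after Con-FMT and at 238, 234 and 268 after A10-FMT, a log2 change of 0.45 ± 0.08 (adjusted p = 0.00177). Cdhr5 was at 379, 383 and 428 FPKM against 487, 533 and 593, a change of 0.44 ± 0.09 (adjusted p = 0.00367). For both genes the groups were fully separate. Their partners at the core did not pass: Myo7b, the motor of the tip links, changed by 0.15 ± 0.06 (adjusted p = 0.0876). Ush1c, the harmonin scaffold, changed by 0.13 ± 0.08 (adjusted p = 0.256), and it was the only member whose Con-FMT and A10-FMT mice of set 1 overlapped. A complete separation upwards, seen in 9 members, occurred in 12.2% of all genes tested.

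In set 2 the same comparison ran the other way. All 10 members had a log2 change below 0 (median -0.19, against 0.05 for all genes), and 2 of 10 fell, with 0.379% of all genes called and 0.37% called lower. Cdhr2 was at 188, 220 and 217 FPKM after Con-FMT and at 162, 137 and 160 after A10-FMT, with a change of -0.45 ± 0.08 (adjusted p = 0.0315). Ezr was at 137, 145 and 149 FPKM against 117, 121 and 120.3, with a change of -0.26 ± 0.05 (adjusted p = 0.0399). Neither gene overlapped between the groups. Espn (-0.60 ± 0.15), Cdhr5 (-0.35 ± 0.09) and Vil1 (-0.20 ± 0.06) did not pass, with adjusted p of 0.0941, 0.0877 and 0.167. The A10-FMT mice lay below all Con-FMT mice for 6 members, as for 8.3% of all genes. The 2 calls depended on single mice: the count was 0 without Con-FMT replicate 2, 0 without Con-FMT replicate 3, 0 without A10-FMT replicate 2 or 3, 1 without A10-FMT replicate 1, and 5 without Con-FMT replicate 1 of set 2.

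The difference of A10-FMT vs. Con-FMT between the sets, a comparison added after the data were seen, was itself tested. It passed for 8 members, all higher in set 1, with 20.8% of all genes called and 6.7% called in that direction. The log2 difference was 1.48 ± 0.22 for Espn, 0.89 ± 0.11 for Cdhr2, 0.79 ± 0.13 for Cdhr5, 0.58 ± 0.07 for Ezr and 0.51 ± 0.09 for Vil1, with adjusted p from 0.000151 (Cdhr2) to 0.000779 (Vil1). Myo1a, Pls1 and Myo7b passed as well. Eps8 (0.32 ± 0.15, adjusted p = 0.141) and Ush1c (0.20 ± 0.11, adjusted p = 0.22) did not. Averaged over both sets, no member passed, with adjusted p of 0.922 or more, and no gene of the table did (0.0% called). Of the called genes 760 were higher in set 1 and 1594 lower, and with median-ratio scaling, which moved the median of all genes from -0.13 to -0.01, 1105 and 609. In a fit of the Con-FMT and A10-FMT libraries alone, with no Sa library, 9 members passed. Leaving out 1 library gave 5 to 8 members, with 5 without replicate 2 of Con-FMT or replicate 3 of A10-FMT in set 1, and 5 without replicate 2 or 3 of Con-FMT or replicate 2 of A10-FMT in set 2. With quantile normalization 5 passed. What distinguishes the sets is not given, and its parts cannot be told apart.

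**Figure D2:**
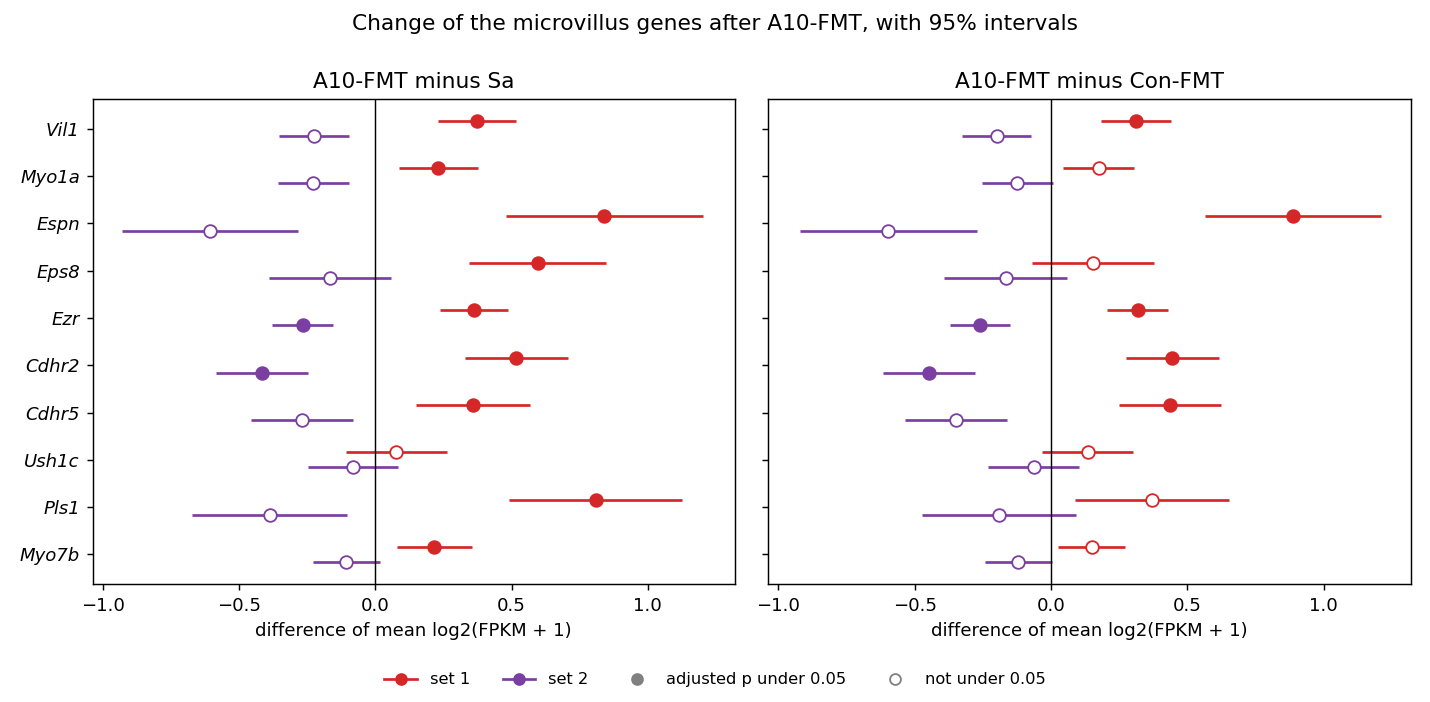
Log2 change (horizontal axis, difference of mean log2(FPKM + 1), with 95% intervals) of each microvillus gene after A10-FMT against Sa (left) and against Con-FMT (right), in set 1 and set 2; filled points passed an adjusted p of 0.05. Every point of set 1 lies right of 0 and every point of set 2 lies left of it.

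Against Sa, which shares the A10-FMT mice with the comparison above, the pattern of set 1 was wider. In Sa vs. A10-FMT of set 1, 9 of 10 members rose, all but Ush1c, with 32% of all genes called and 13.6% called higher. The median change of the members was 0.37 and that of all genes -0.01. Espn (0.84 ± 0.17), Pls1 (0.81 ± 0.15) and Eps8 (0.60 ± 0.12) led, followed by Cdhr2 (0.52 ± 0.09), and Vil1 rose by 0.37 ± 0.07 (adjusted p = 0.0013). Each of these 9 was higher in every A10-FMT mouse than in both Sa mice, as were 13.9% of all genes. The calls rested on the spread shared by all 8 groups: 0 members passed in a fit of the Sa and A10-FMT libraries of set 1 alone. With array quality weights 0 passed too, and the Sa mice of set 1 had a weight of 0.0859 each. In a group of 2 the residuals are equal in size, so these weights cannot tell Sa replicate 1 from Sa replicate 3. Without Sa replicate 1 or A10-FMT replicate 3 of set 1, 6 members passed. Of all called genes 1541 were higher and 2086 lower, and with median-ratio scaling 2044 and 1576.

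Part of the size of these changes sat in 1 library. Pls1 was at 169 FPKM in Sa replicate 1 of set 1 and at 98.5 in Sa replicate 3, and Eps8 at 29.6 and 18.6. No other library of the table was lower for either gene, and their longest transcripts have the lowest GC content of the members, 42.7% (Pls1) and 47.6% (Eps8). In the description's column, Pls1 was at 154 FPKM and Eps8 at 28.5, Vil1 was lower (575), and all 10 members passed in Sa vs. A10-FMT. The part of the GC content in these values was not tested further than by the GC adjustment, with which all 10 passed.

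Con-FMT and A100-FMT moved few members against Sa, from which they share the control mice, and in set 1 these were Eps8 and Pls1. In Sa vs. Con-FMT of set 1, Eps8 (0.44 ± 0.12, adjusted p = 0.0265) and Pls1 (0.44 ± 0.15, adjusted p = 0.0417) rose, 2 of 10 beside 26.9% of all genes called and 17.7% called higher. The count was 0 with the description's column and 0 without Sa replicate 3, 0 without Con-FMT replicate 1 or 3, 1 without Con-FMT replicate 2, and 3 without Sa replicate 1. Called genes divided into 2011 higher and 1040 lower, and with median-ratio scaling into 1709 and 1355. In Sa vs. A100-FMT of set 1, Eps8 (0.46 ± 0.12, adjusted p = 0.0125) and Pls1 (0.61 ± 0.15, adjusted p = 0.0106) rose, 2 of 10 beside 35.2% called and 22% called higher. It was 0 without Sa replicate 3 and 3 without Sa replicate 1, and 6 with quantile normalization, where 1735 genes were higher and 1639 lower, against 2499 and 1488. Both counts of 2 in 10 lie near the background.

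In set 2, where Sa had 3 mice, the members leaned downward in both AOS-dosed donor groups. In Sa vs. A10-FMT, Cdhr2 (-0.42 ± 0.08, adjusted p = 0.0325) and Ezr (-0.27 ± 0.05, adjusted p = 0.0383) fell, 2 of 10 beside 0.423% of all genes called and 0.335% called lower. Vil1 changed by -0.22 ± 0.06 (adjusted p = 0.104), and all 10 members were below 0 (median -0.25). All A10-FMT mice lay below all Sa mice for 9 members, as for 11.4% of all genes. The 2 calls were lost on leaving out Sa replicate 2 or 3 or any A10-FMT mouse of set 2. In Sa vs. A100-FMT no member passed (0.0353% of all genes called), and all 10 were below 0 (median -0.16), with Vil1 at -0.25 ± 0.06 (adjusted p = 0.108). All A100-FMT mice lay below all Sa mice for 6 members, as for 10.1% of all genes. In Sa vs. Con-FMT no member passed (0.0353% called). All Con-FMT mice lay below all Sa mice for 1 member, as for 10.9% of all genes.

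No member passed in Con-FMT vs. A100-FMT. In set 1, 0 members passed beside 0.406% of all genes, 1 had an unadjusted p under 0.05, and the change of Vil1 was 0.06 ± 0.06 (95% interval -0.07 to 0.19). In set 2, 0 passed beside 0.0% of all genes, and all 10 were below 0, with Vil1 at -0.23 ± 0.06 (95% interval -0.36 to -0.10). There all A100-FMT mice lay below all Con-FMT mice for 5 members, as for 6.49% of all genes.

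Averaged over both sets, no member passed in any FMT group against Sa, with 0.75% (Con-FMT), 0.132% (A10-FMT) and 0.891% (A100-FMT) of all genes called. Without Sa replicate 1 of set 1, the counts of members were 3, 2 and 3. The difference of Sa vs. A10-FMT between the sets passed for 9 members, all but Ush1c, with 28.4% of all genes called and 10.6% called in that direction, and that of Sa vs. A100-FMT for 5 (Vil1, Eps8, Cdhr2, Pls1 and Myo7b), with 26.8% and 13.5%. With array quality weights 0 members passed in either of these differences, and 0 passed in that of Sa vs. A100-FMT in a fit of the groups compared alone, where that of Sa vs. A10-FMT had a count of 9. For Sa vs. Con-FMT it passed for 0 members, with 0.00882% of all genes called. Pls1 was at 0.63 ± 0.20 (adjusted p = 0.0813) and Eps8 at 0.44 ± 0.16 (adjusted p = 0.0885). Set 2 was lower than set 1 on the average over treatments for Vil1 (-0.15 ± 0.03), Cdhr5 (-0.15 ± 0.05) and Ezr (-0.09 ± 0.03), 3 of 10 beside 13.3% of all genes called and 2.62% called lower. This count ran from 1 to 8 over the fits that left out 1 library, with 8 without Sa replicate 1 of set 1.

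The genes around the scaffold moved in part with it. Of 44 genes of the same structures that are no members, 37 were tested. In A10-FMT vs. Con-FMT of set 1, 8 rose and 0 fell (median 0.04 over the 37), beside 5.2% of all genes called higher. Among partners of the tip links, Calml4, a light chain of myosin 7b, rose by 0.27 ± 0.07, Tmigd1, a membrane protein of the brush border, by 1.32 ± 0.30, while Anks4b, a scaffold of the tip links, was at 0.09 ± 0.12 (adjusted p = 0.676). Of the membrane linkers, Slc9a3r1, the scaffold that binds ezrin, rose by 0.50 ± 0.10 and Pdzk1, a scaffold of apical transporters, by 0.89 ± 0.18. In the actin list Eps8l2, a relative of Eps8, rose by 0.38 ± 0.09 and Actb by 0.26 ± 0.07. In the list of apical trafficking Rab11a rose by 0.26 ± 0.07 and Stxbp2, a partner of syntaxin 3, by 0.23 ± 0.07. The motors and spectrins of the terminal web showed 0 of 10 called, with their highest genes Myh14 and Myo1d at 0.14 ± 0.07 and 0.01 ± 0.06. The other genes of high level, Actg1 (-0.05 ± 0.09), Muc13 (0.24 ± 0.09) and Rab8a (0.11 ± 0.04), did not pass.

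In set 2, A10-FMT vs. Con-FMT called 0 of the 37, and Sa vs. A10-FMT called Pdzk1 alone, at -0.91 ± 0.18 (adjusted p = 0.032). In Sa vs. A10-FMT of set 1, 15 of 37 rose and 0 fell, beside 13.6% of all genes called higher. Vill, a relative of Vil1, Fscn1 (fascin), Rdx (radixin) and Msn (moesin) had mean levels of 0.113, 0.0152, 0.167 and 0.52 FPKM and were not tested. Of the listed regulators of the epithelium, Klf4 rose by 0.61 ± 0.12 and Klf5 fell by 0.50 on the log2 scale (SE 0.09) in A10-FMT vs. Con-FMT of set 1, and Hnf4a fell by 0.15 (SE 0.04).

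Across the 23 libraries the members moved together. The Pearson correlation of log2(FPKM + 1) over the 45 pairs had a median of 0.69 (-0.09 to 0.93), and 0.81 (0.58 to 0.93) without Sa replicate 3 of set 1. Over the 8 group means the median was 0.84. The points share tissue make-up, depth and scaling. The low pairs were those of Eps8 and Pls1 with Ush1c, at -0.09 and 0.07, and they were 0.62 and 0.68 without Sa replicate 3 of set 1. Vil1 was most like Ezr (0.91) and Cdhr2 (0.91) among members and least like Eps8 (0.56, or 0.84 without that library). Without that library Vil1 was least like Ush1c (0.74). Outside the members, the tested genes with the highest correlation with Vil1 included C2cd2l (0.97), Anpep, Slc43a2, Slc27a4, Slc7a7, Mpp1 and Btnl2 (0.92), against a median of -0.19 over all 11336 other tested genes.

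**Figure D3:**
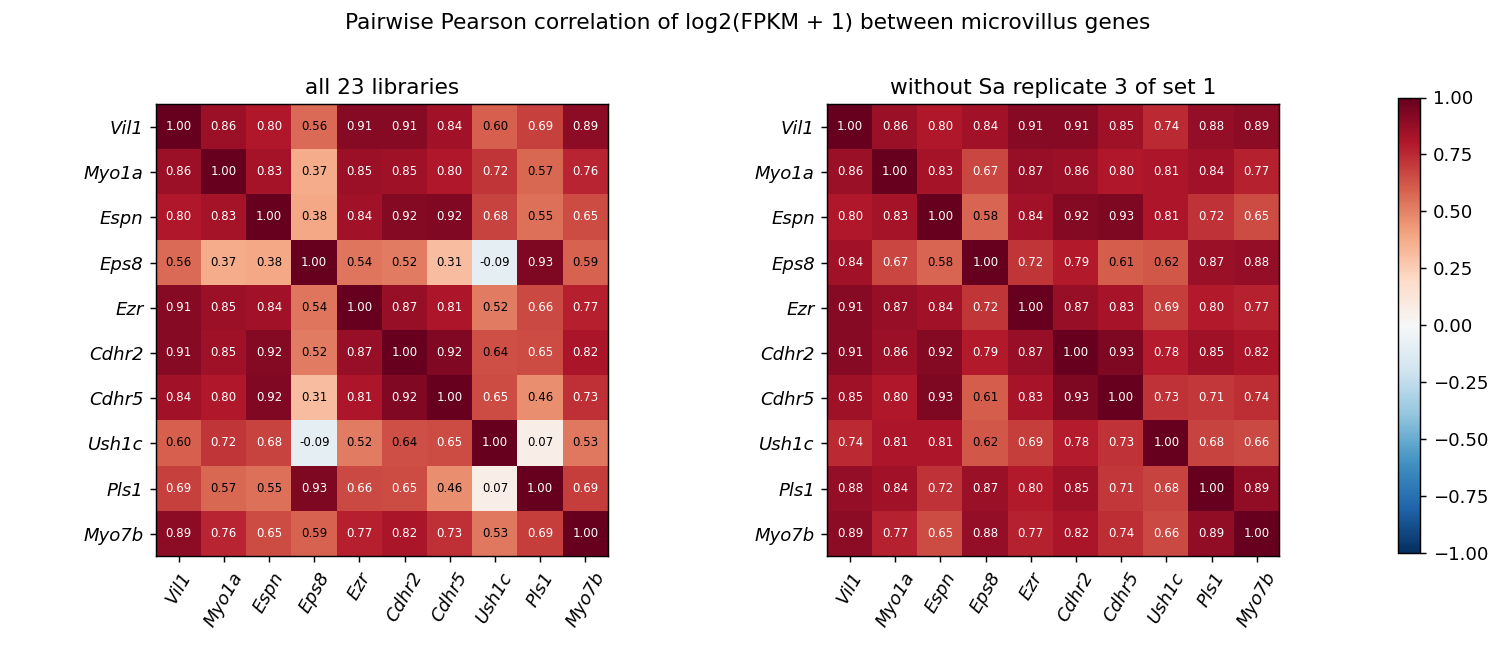
Pearson's r of log2(FPKM + 1) for each pair of microvillus genes, as colour and number, over all 23 libraries (left) and without Sa replicate 3 of set 1 (right). Leaving that library out raised the pairs of Ush1c with Eps8 (-0.09 to 0.62) and with Pls1 (0.07 to 0.68). The pair of Eps8 and Pls1 went from 0.93 to 0.87. The lowest r was -0.09 (Eps8 and Ush1c) with that library and 0.58 (Espn and Eps8) without it.

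The enterocyte markers moved with the members. In A10-FMT vs. Con-FMT of set 1, 5 of 12 enterocyte markers rose and 0 fell, with a median of 0.44. In set 2, 0 rose and 2 fell, with a median of -0.54. Beside these and the marker counts below, 16.7% of all genes were called in set 1, and 5.2% were called higher. In set 2, 0.379% of all genes were called and 0.37% were called lower. Their summed level was 6978 to 8020 FPKM after Con-FMT and 11175 to 13886 after A10-FMT in set 1, and 7312 to 9269 and 4543 to 6278 in set 2. Over the 23 libraries the mean of the members had r = 0.91 with the summed enterocyte markers, -0.64 with crypt and proliferation markers, 0.35 with goblet markers and -0.07 with pan-epithelial markers. Without Sa replicate 3 of set 1 these were 0.91, -0.86, 0.64 and 0.24, so the sign for the pan-epithelial markers rested on that library. These are descriptions over libraries that share scaling and make-up. In A10-FMT vs. Con-FMT of set 1, 4 of 7 crypt and proliferation markers fell, among them Olfm4, a stem cell gene (-0.45 ± 0.15), and Paneth markers showed 0 of 5 called, with Defa24 at -0.18 ± 0.18. Apoa1, the enterocyte marker of the highest level, rose by 0.80 ± 0.19. Of 7 goblet markers 2 rose, the mucin Muc2 (0.49 ± 0.11) and Clca1 (0.42 ± 0.14), and 0 fell, with a median of 0.22 and Zg16, the highest, at 0.30 ± 0.15. The 8 genes listed as pan-epithelial markers did not move as one. Krt20 rose (0.47 ± 0.11), as enterocyte markers did, and it is part of the pan-epithelial sum. Cdh1 fell by 0.26 (SE 0.05), the median of the list was 0.05, and Krt8, the highest, was at 0.13 ± 0.09. Of T cell markers 0 of 5 were called and of stress genes 0 of 6, with summed levels in the libraries of 35.5 to 208 and 122 to 160 FPKM. In the difference of A10-FMT vs. Con-FMT between the sets, 7 of 12 enterocyte, 2 of 7 goblet, 2 of 5 T cell and 3 of 6 stress genes were called, all higher in set 1. The other way, 4 of 7 crypt and proliferation markers were called lower in set 1. Of the pan-epithelial markers Krt20 was called higher and Cdh1 lower. Among all genes 20.8% were called and 6.7% were called higher in set 1. The part of these markers in the change of the members was not tested.

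**Figure D4:**
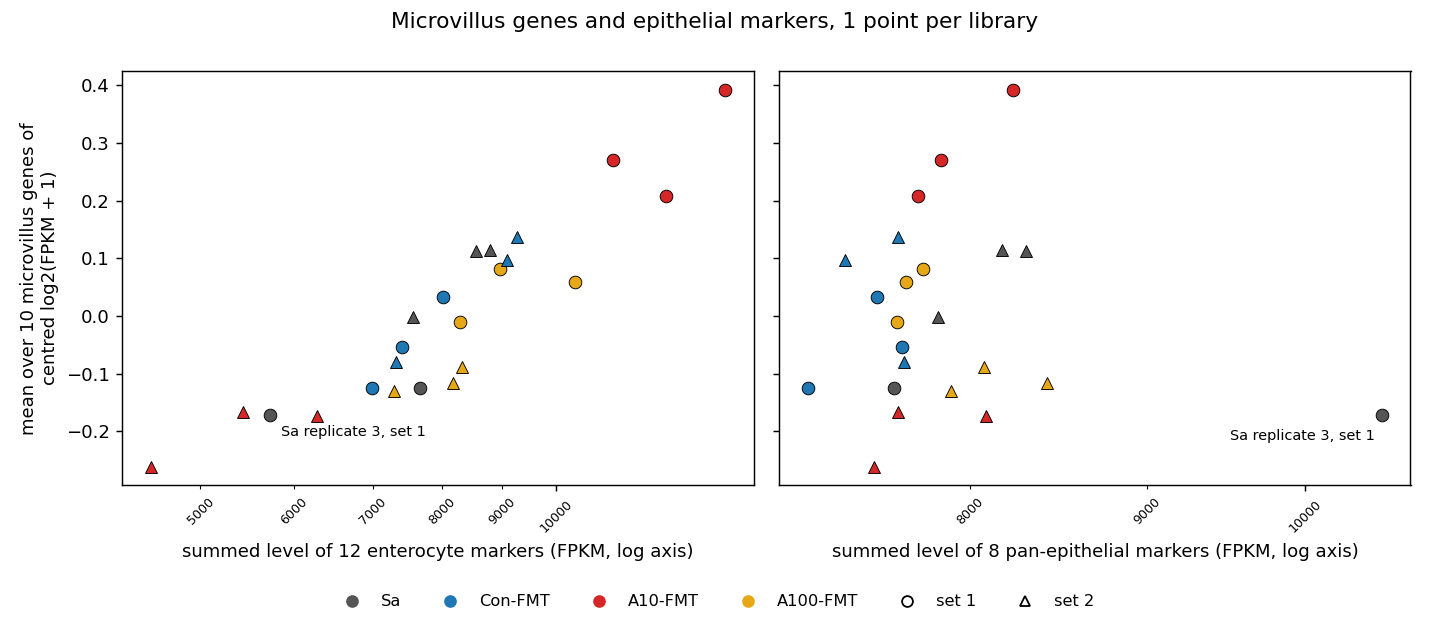
Mean of the 10 microvillus genes (vertical axis, log2(FPKM + 1) centred per gene) against the summed FPKM (log axis) of 12 enterocyte markers (left) and 8 pan-epithelial markers (right), 1 point per library; colours are treatments, circles set 1 and triangles set 2. A10-FMT mice of set 1 lie at the upper right of the left panel and A10-FMT mice of set 2 at the lower left, and the pan-epithelial sum of Sa replicate 3 of set 1 (10523) is the highest.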

How the data were processed

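By their methods, the authors extracted RNA with TRIzol, ran a HiSeq sequencer, turned read numbers into RPKM and used DEGseq; the aligner is not given in the sources used here. The deposited table holds FPKM with 2 decimals, as its column names say, for 23 samples in 24 columns. The 1 column more is the Sa column of set 1 numbered 2, which only the description of Sa replicate 3 names and which was used as an alternative. Its low FPKM values gave no clean steps (24.8% within 0.1 of a whole multiple of the lowest over 744 genes), so the authors' read numbers were not recovered and depth is unknown. Of 17842 NCBI Gene numbers, 17725 matched a symbol. Builds are from the labels (mm10, that is GRCm38), promoters from RefSeq GRCm38.p6 and GC content from GENCODE M21 (92.9% of tested genes).

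Values were analysed as log2(FPKM + 1) with R 4.3.3, limma 3.58.1, Python 3.11.15, numpy 2.4.6, pandas 2.3.3 and matplotlib 3.10.9. The 11337 genes averaging 1 FPKM or more were fitted in 1 limma model with a mean for each of 8 groups and eBayes with trend, and p-values were Benjamini-Hochberg adjusted over them (threshold 0.05). The added 1 shrinks the changes of low genes. FMT groups were compared with Sa and Con-FMT within each set, over both sets, and between sets as an interaction. The fit was tested on simulated data.

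Alternatives were a pseudocount of 0.1, all genes above 0, a filter at a mean of 5 FPKM, normalization by quantiles, median-ratio scaling, a replicate block, array quality weights, the description's column, no trend, the groups compared alone and leaving out each library. A GC adjustment in 40 bins and the interaction of A10-FMT vs. Con-FMT were added after the data were seen. The members and gene lists were chosen with earlier results of these data known. Genes named are the 10 members, the genes of 5 lists of related structures called in a comparison (at most 3 per direction) with the 2 highest of each, the 8 tested genes most correlated with Vil1 (1 of them is not reported here) and the highest marker of the cell type lists. Klf4, Klf5, Hnf4a and the markers and list genes under 1 FPKM, and Muc2, Clca1, Krt20 and Cdh1, were named after their values were seen.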

Additional observations from a re-analysis of the deposited data

Results flagged for a closer look

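The change after FMT differed between the sets for several members, by the test of the difference itself (limma, Benjamini-Hochberg over 11337 genes). Each difference is the log2 change of set 1 minus that of set 2. For A10-FMT minus Sa it was 0.60 for Vil1, 0.46 for Myo1a, 1.45 for Espn, 0.76 for Eps8, 0.63 for Ezr, 0.93 for Cdhr2, 0.63 for Cdhr5, 1.19 for Pls1 and 0.32 for Myo7b, with adjusted p from 0.000164 (Ezr) to 0.0112 (Myo7b). For A100-FMT minus Sa it was 0.37 for Vil1, 0.70 for Eps8, 0.49 for Cdhr2, 1.05 for Pls1 and 0.30 for Myo7b, with adjusted p from 0.00701 (Pls1) to 0.0236 (Myo7b). These comparisons share the Sa mice, of which set 1 had 2. With array quality weights none of the members passed in either. For A10-FMT minus Con-FMT, whose spread is estimated with the Sa libraries too, it was 0.51 for Vil1, 0.30 for Myo1a, 1.48 for Espn, 0.58 for Ezr, 0.89 for Cdhr2, 0.79 for Cdhr5, 0.56 for Pls1 and 0.27 for Myo7b, with adjusted p from 0.000151 (Cdhr2) to 0.0447 (Pls1). In all 3 comparisons the change was higher in set 1.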

How the results depend on the processing

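Medians are log2 changes over the 10 members, and counts are members called. A setting also changes how many of all genes are called, and those shares are not given beside the counts. The counts therefore show how the calls move with the setting, and not a result particular to the members. The members' direction was the same under the scalings run in Con-FMT vs. A10-FMT of either set. Array quality weights gave 0 members in each comparison with Sa of set 1, in the set differences of Sa vs. A10-FMT and A100-FMT and in set 2 minus set 1, but 8 in Sa vs. A10-FMT, 7 in Sa vs. A100-FMT, 5 in Con-FMT vs. A10-FMT and 5 in Con-FMT vs. A100-FMT of set 2, and 8 in Con-FMT vs. A10-FMT of set 1. Compared alone, the groups gave 0 in the 3 comparisons with Sa of set 1, in Con-FMT vs. A10-FMT of set 2 and in the set difference of Sa vs. A100-FMT. These fits have fewer samples. The array weights are bound to be equal in a group of 2, so for Sa of set 1 they do not single out replicate 3.

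With the description's column the counts were 0 (Sa vs. Con-FMT, set 1), 5 (Sa vs. A10-FMT, set 2), 3 (Sa vs. A100-FMT, set 2), 9 (Con-FMT vs. A10-FMT, set 1), 1 (Con-FMT vs. A100-FMT, set 2) and 1 (set 2 minus set 1). Its medians were 0.15 (Sa vs. Con-FMT) and 0.21 (Sa vs. A100-FMT) in set 1, and 0.17 and 0.43 for their set differences. The GC adjustment gave counts of 1 (Sa vs. Con-FMT) and 6 (Sa vs. A100-FMT) in set 1, 5 for A10-FMT and 1 for A100-FMT against Sa in set 2, 9 and 4 (Con-FMT vs. A10-FMT, set 1 and set 2), 8 (set difference of Sa vs. A100-FMT) and 1 (set 2 minus set 1). Its medians were 0.14, 0.53 and 0.26 for Sa vs. Con-FMT, A10-FMT and A100-FMT of set 1, 0.16, 0.79 and 0.46 for their set differences and 0.63 for that of Con-FMT vs. A10-FMT.

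Quantile normalization gave 1 (Sa vs. A10-FMT, set 2), 6 (Sa vs. A100-FMT, set 1), 8 and 5 (set differences of Sa vs. A100-FMT and Con-FMT vs. A10-FMT) and 0 (set 2 minus set 1), with medians of 0.18, 0.51 and 0.25 for Sa vs. Con-FMT, A10-FMT and A100-FMT of set 1 and 0.20, 0.74 and 0.40 for their set differences. Median-ratio scaling gave 1 (Sa vs. Con-FMT, set 1), 8 with a median of 0.40 (Con-FMT vs. A10-FMT, set 1), a median of 0.67 (its set difference) and 5 (set 2 minus set 1). All genes above 0 gave 1 (Sa vs. Con-FMT, set 1), 0 (Sa vs. A10-FMT, set 2), 0 (Con-FMT vs. A10-FMT, set 2) and 1 (set 2 minus set 1), and a fit without trend 1 in both of the A10-FMT comparisons of set 2. In these cases the cause was not tested.

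After removal of group means, 10 of 33 same-numbered pairs within a set had r above 0.1 (-0.35 to 0.32). Different-numbered pairs and pairs across the sets were not looked at. These values therefore cannot decide whether the replicate numbers pair the samples. The replicate block gave 0 in Sa vs. A10-FMT and 0 in Con-FMT vs. A10-FMT of set 2, and 1 in set 2 minus set 1.

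Leaving out 1 library gave 0 to 3 (Sa vs. Con-FMT, set 1), 0 to 3 (Sa vs. A100-FMT, set 1), 0 to 2 (Sa vs. A10-FMT, set 2), 0 to 5 with medians of -0.27 to -0.15 (Con-FMT vs. A10-FMT, set 2), 5 to 8 (its set difference), 0 to 3, 0 to 2 and 0 to 3 (Sa vs. Con-FMT, A10-FMT and A100-FMT, both sets), 0 to 2 (set difference of Sa vs. Con-FMT) and 1 to 8 (set 2 minus set 1). The change of Vil1 in Sa vs. Con-FMT, near 0, ran from -0.066 to 0.040 in set 2 and from -0.0024 to 0.050 over both sets. Depth is unknown, so no detection limit can be given for the genes near 0 FPKM.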
